A study of Plutella xylostella with 12 samples.

Results

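The microRNAs (miRNAs) of diamondback moth larvae were compared between a high and a low dose of the insecticide chlorantraniliprole after 24 h of exposure. The members were the 6 small RNA libraries that the labels place at 24 h, 3 for each dose, out of 12 libraries in the series. *Plutella xylostella*, the diamondback moth, is a pest of cabbage and related crops. All 6 libraries came from the whole body of 3rd instar larvae of the insecticide-susceptible Waite strain, and only larvae that survived were sampled. The low-dose group received 0.01 ppm and the high-dose group 0.1 ppm. No unexposed larvae enter the comparison, so every difference below is between 2 exposed groups. The sources used here give neither the number of larvae per library nor the route of exposure. The labels call the replicates biological but do not say that they came from separate rearings, so p-values measure the spread between these libraries.

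Chlorantraniliprole is a diamide that holds open the ryanodine receptor, the channel that releases calcium inside muscle cells, and exposed larvae stop feeding and become paralysed. A miRNA is a short RNA cut from a hairpin precursor. Each precursor can give a mature strand from its 5′ arm (named 5p) and from its 3′ arm (named 3p), and usually 1 of them is kept in excess to repress messenger RNAs. In insect larvae, miRNAs are known for timing the moults, tuning the responses to ecdysone and insulin, and setting the fate of sensory and muscle cells.

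The libraries held 28682 to 41214 miRNA counts, a ratio of 1.44, and listed 79 to 90 miRNA names each. Low-dose totals averaged 40038 ± 1990 (SD, n = 3) and high-dose totals 34538 ± 5853, and the ranges overlapped. Of 102 names, 76 reached 10 counts in at least 3 libraries and were tested, covering at least 99.7% of the counts in every library. The other 26 names had at most 15 counts in any library. Of 7 families looked for as marks of larval tissues, miR-1 of muscle and miR-281 of gut and Malpighian tubule were listed in all 6 libraries, and 5 (miR-133, miR-124, miR-7, miR-275 and miR-305) were not listed. Over 69 miRNAs listed everywhere, each library lay nearer to its own dose than to the other one. High-dose replicate 2 stood closest to the divide, with a root mean square distance of 0.52 log2 units to the other high-dose libraries and 0.57 to the low-dose ones. The low-dose libraries were the tighter group, at 0.37 to 0.40 from each other on average against 0.48 to 0.54 at the high dose.

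After 24 h, larvae of the high-dose group carried less pxy-mir-278-5p and, most of all, less pxy-mir-317-3p, and more pxy-miR-8496-3p and pxy-let-7-5p, than larvae of the low-dose group. In all, 17 of the 76 tested miRNAs (22.4%) passed an adjusted p of 0.05, 9 of them higher (11.8%) and 8 lower (10.5%) at the high dose. An unadjusted p under 0.05 was reached by 24 (31.6%). The changes were mostly modest: 4 of the 17 were larger than 2-fold, and the median size was 0.65 on the log2 scale. The 8 lower miRNAs included abundant ones, and together they made up 30.5% ± 0.50 (SD, n = 3) of all low-dose counts and 23.0% ± 1.48 of all high-dose counts. The 9 higher miRNAs took 6.57% ± 0.08 and 9.45% ± 0.36. In a whole-body extract, fewer cells of a type that makes a miRNA and less of it per cell cannot be told apart. Tests were made with edgeR's quasi-likelihood method and Benjamini-Hochberg adjustment over all 76 names, and levels are CPM, the counts of a miRNA relative to the library's total as scaled by TMM factors. Without high-dose replicate 2 the count of calls was 28, with 13 higher and 15 lower, and all 17 were among them.

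**Figure D1:**
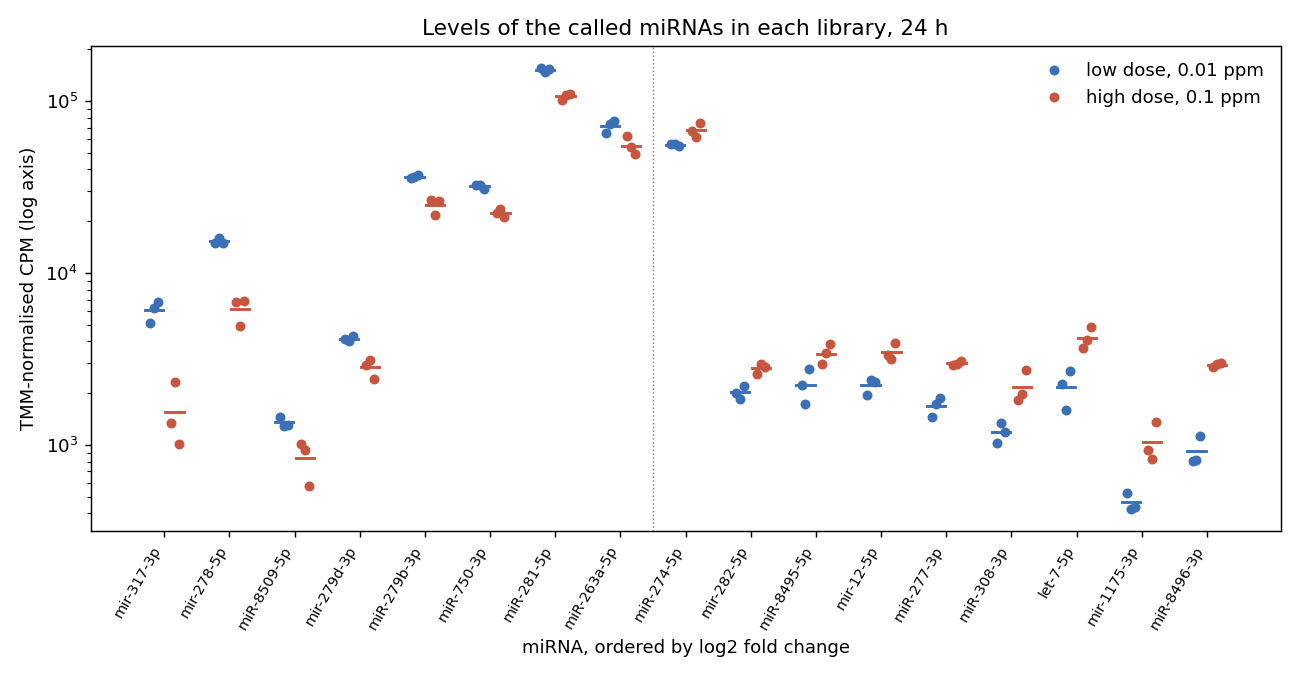
Levels of the 17 miRNAs that passed, as TMM-normalised CPM on a log axis, in the 3 low-dose (blue) and 3 high-dose (red) libraries, with the group mean as a line. The 8 miRNAs left of the dotted line were lower and the 9 to its right higher at the high dose, and for none of the 17 do the points of the doses overlap. Over all 76 tested miRNAs the doses did not overlap for 27 (35.5%).

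The lowest p belonged to pxy-mir-278-5p, a strand of the precursor whose *Drosophila* relative acts on insulin responsiveness and energy balance. Its levels were 14951, 15874 and 15001 CPM in low-dose replicates 1 to 3, and 6743, 4936 and 6884 CPM in high-dose replicates 1 to 3. All high-dose libraries lay far below the whole low-dose group, whose 3 values were within a narrow band. The fall was 2.47-fold (log2 fold change -1.31 ± 0.13 SE, 95% interval -1.57 to -1.04, adjusted p = 2.16e-07, edgeR).

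The largest fall among the called miRNAs was that of pxy-mir-317-3p. In *Drosophila* miR-317 is known as a restraint on the Toll immune response. Its low-dose levels were 5132, 6270 and 6793 CPM and its high-dose levels 1342, 2312 and 1009 CPM. The high-dose libraries differed among themselves by more than 2-fold, with replicate 2 the highest, yet all lay well under the low-dose group. It fell 3.88-fold (-1.96 ± 0.20 SE, adjusted p = 2.81e-07, edgeR), and the log2 value ran from -2.39 to -1.70 when single libraries were left out.

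The other falls were smaller and several fell on abundant miRNAs. The strand pxy-miR-281-5p, of a family enriched in the gut and Malpighian tubules of insects, stood at 155364, 147345 and 152355 CPM at the low dose and at 101083, 107503 and 110325 CPM at the high dose. It was the second most abundant name, and each dose formed a tight set. The change was 1.43-fold (-0.51 ± 0.09 SE, adjusted p = 0.000306, edgeR). The level of pxy-miR-750-3p was 30903 to 32454 CPM at the low dose and 21006 to 23434 CPM at the high dose (-0.52 ± 0.10 SE). In *Drosophila* miR-263a protects sensory bristle cells from death, and pxy-miR-263a-5p fell from 71646 ± 6263 to 55000 ± 6782 CPM (SD, n = 3; -0.38, adjusted p = 0.0115, edgeR). That call was lost without low-dose replicate 2 (-0.36, adjusted p = 0.065) or 3 (-0.37, adjusted p = 0.0713). The *P. xylostella* miRNA pxy-miR-8509-5p fell from 1350 ± 81 to 841 ± 228 CPM (-0.70, adjusted p = 0.0372, edgeR), and passed in only 2 of the 6 fits that left out a library: the call ended without high-dose replicate 3 (-0.48) and without each low-dose library (-0.65, -0.73 and -0.76 for replicates 1, 2 and 3).

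Whether these smaller falls passed differed between scalings, most of all with upper quartile factors. With upper quartile factors, the median log2 fold change of all tested miRNAs moved from -0.06 to 0.26, and the split of 9 higher and 8 lower became 21 and 2. Under that scaling pxy-miR-750-3p (-0.18), pxy-miR-263a-5p (-0.04), pxy-miR-279b-3p (-0.205), pxy-mir-279d-3p (-0.22), then pxy-miR-281-5p (-0.18) and lastly pxy-miR-8509-5p (-0.37) kept their sign without passing, and the falls of pxy-mir-278-5p and of pxy-mir-317-3p still passed. With library totals alone, which moved the median to 0.06, the split was 12 and 6, and pxy-miR-263a-5p (-0.26) and pxy-miR-8509-5p (-0.57) did not pass.

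**Figure D2:**
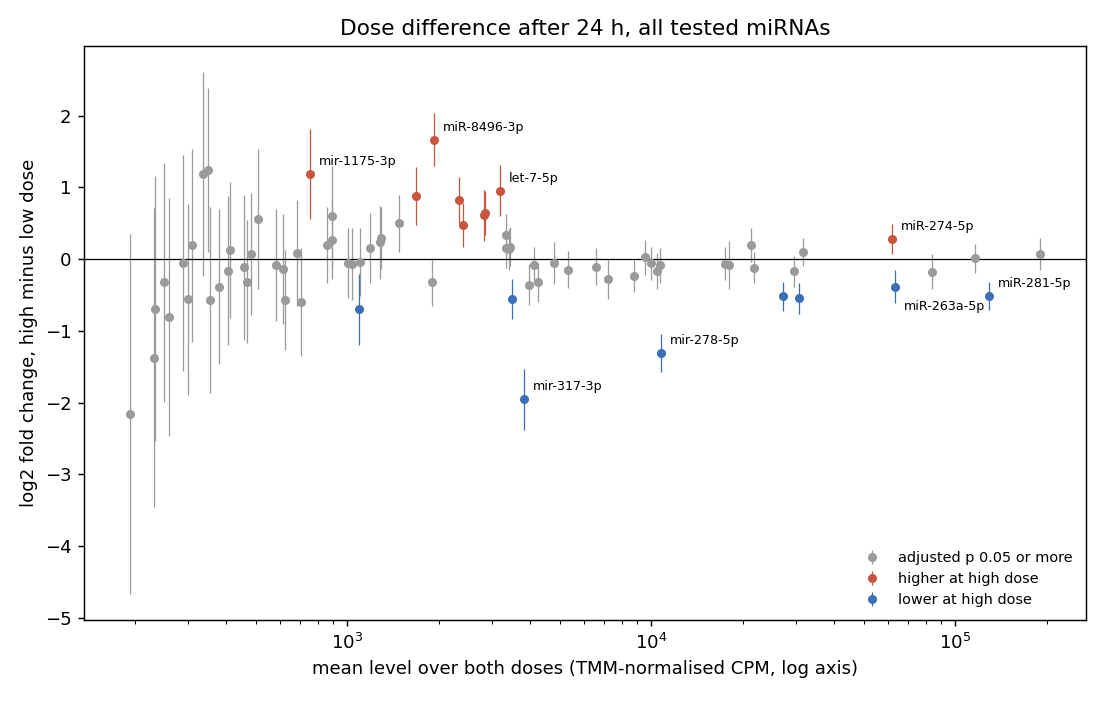
Log2 fold change (high minus low dose) of the 76 tested miRNAs against their mean level in TMM-normalised CPM (log axis), with 95% intervals as bars. Red and blue points passed an adjusted p of 0.05 as higher or lower, and grey points did not; pxy-mir-317-3p (-1.96) and pxy-miR-8496-3p (1.67) lie at the ends of the called range.

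Among the miRNAs that rose, pxy-miR-8496-3p, numbered among miRNAs first described in this moth, moved most. Its levels were 804, 821 and 1132 CPM at the low dose and 2818, 2962 and 3001 CPM at the high dose. The 3 high-dose libraries were nearly level with each other and each was more than 2-fold above the highest low-dose library. It rose 3.18-fold (1.67 ± 0.17 SE, 95% interval 1.30 to 2.03, adjusted p = 2.81e-07, edgeR). The files spread many names over several rows, and by the highest row of pxy-miR-8496-3p alone the rise was 0.71 (adjusted p = 0.0309, edgeR).

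The timing miRNA pxy-let-7-5p, which accumulates with ecdysone pulses in *Drosophila* and drives the passage to adult tissue fates, stood at 2247, 1592 and 2676 CPM at the low dose and at 3657, 4079 and 4816 CPM at the high dose. The doses did not overlap, and low-dose replicate 3 and high-dose replicate 1 came nearest to each other. The rise was 1.94-fold (0.95 ± 0.17 SE, adjusted p = 0.000306, edgeR). In *Drosophila* miR-277 controls the breakdown of branched-chain amino acids. The level of pxy-miR-277-3p went from 1442, 1717 and 1878 CPM to 2919, 2936 and 3076 CPM, a rise of 1.77-fold (0.82 ± 0.15 SE, adjusted p = 0.000377, edgeR).

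Of the remaining higher miRNAs, pxy-miR-308-3p, of the large family that shares the miR-2 seed in *Drosophila*, rose 1.84-fold (0.88 ± 0.19 SE, adjusted p = 0.00187, edgeR). The level of pxy-mir-12-5p rose 1.56-fold, from 2215 ± 240 to 3466 ± 415 CPM (SD, n = 3), a call lost with the highest row alone (0.46, adjusted p = 0.0509, edgeR). The strand pxy-mir-1175-3p rested on few reads, with 19, 17 and 17 counts at the low dose and 28, 32 and 54 at the high dose. Its rise was 2.27-fold (1.18 ± 0.30 SE, adjusted p = 0.0057, edgeR), and high-dose replicate 3 stood above the others. With the highest row alone that call was lost too (0.32, adjusted p = 0.661, edgeR).

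A further 3 rises did not pass in every fit that left out a library, and were also lost with the highest row alone. In some of these fits the call ended though the log2 value hardly moved. The level of pxy-miR-8495-5p rose by a log2 of 0.61, a call lost without low-dose replicate 2 (0.45, adjusted p = 0.0832, edgeR). That of pxy-mir-282-5p rose by 0.48, a call lost without low-dose replicate 1 (0.47) or 2 (0.41). The abundant pxy-miR-274-5p, whose *Drosophila* relative is made in glia and acts on synapse growth, had 56143, 56405 and 54525 CPM at the low dose and 67265, 61364 and 74769 CPM at the high dose. The groups did not overlap, but the change was 1.22-fold (0.28 ± 0.10 SE, adjusted p = 0.0431, edgeR). It passed in 1 of the 6 fits that left out a library, the one without high-dose replicate 2, and was lost without low-dose replicate 1 (0.29), 2 (0.29) or 3 (0.22) and without high-dose replicate 1 (0.29) or 3 (0.21).

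The strands of a precursor did not always move alike, and their ratio within a library does not depend on how libraries are scaled. Both arms had counts in all 6 libraries for 11 of the 15 precursors with 2 tested arms. For 3 of these 11 the 5p to 3p ratio did not overlap between doses, and in each the 5p arm held less of the total at the high dose. For pxy-mir-278 the ratio was 2.78, 2.67 and 2.76 at the low dose and 1.41, 1.06 and 1.21 at the high dose. The low-dose libraries had almost 1 common ratio, and at the high dose the arms came close to parity. The difference was -1.17 on the log2 scale. The other arm, pxy-mir-278-3p, at 5586 ± 313 and 5041 ± 553 CPM (SD, n = 3), did not pass (-0.15, 95% interval -0.40 to 0.11), but by its highest row alone it was called lower (-0.54, adjusted p = 0.00629, edgeR).

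For pxy-mir-281 the ratio of 5p to 3p counts was 49.6, 47.0 and 45.2 at the low dose and 29.3, 30.0 and 28.8 at the high dose. The difference of -0.69 in log2 was the steadiest of the 3, between -0.72 and -0.65 whichever library was left out. The minor strand pxy-miR-281-3p stood at 3134 to 3371 and 3456 to 3833 CPM and did not pass (0.18, 95% interval -0.09 to 0.44). For pxy-mir-1175 the ratio was 5.0, 7.71 and 6.59 at the low dose and 4.36, 4.19 and 2.65 at the high dose, a difference of -0.80. The 3p counts behind it were low, and with the highest rows alone the difference was 0.0028. The exact permutation p was 0.1 for each of these 3 ratios, the smallest that 3 against 3 libraries allow, and 0.314 after adjustment over the 11 precursors. In the other 8 precursors the ratios overlapped, with log2 differences in both directions, from -0.56 for pxy-mir-308 to 0.87 for pxy-mir-274. By the highest rows alone, the ratios of pxy-mir-750 and pxy-mir-308 did not overlap between doses. The 5p arm of pxy-mir-750 then held more at the high dose, and that of pxy-mir-308 less.

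**Figure D3:**
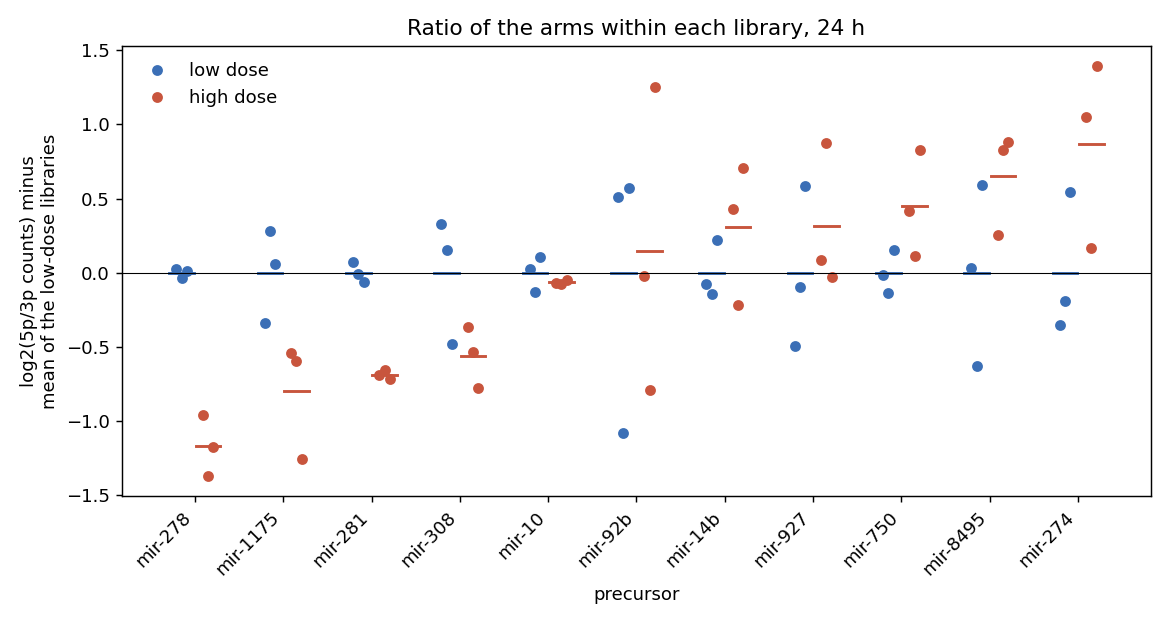
Log2 ratio of 5p to 3p counts within each library for 11 precursors, drawn relative to the mean of the low-dose libraries (blue, 3 per precursor), with the high-dose libraries in red and group means as lines. The points of the doses are separate for mir-278, mir-1175 and mir-281, each lower at the high dose, and overlap for the other 8.

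Some pairs of miRNAs that share a cluster in other insects also parted. In *Drosophila* miR-277 and miR-317 are cut from 1 cluster together with miR-34. The ratio of pxy-miR-277-3p to pxy-mir-317-3p counts was 0.281, 0.274 and 0.277 in the low-dose libraries and 2.17, 1.27 and 3.05 in the high-dose libraries. The low-dose libraries were almost identical, whereas at the high dose pxy-miR-277-3p became the more abundant of the pair in all 3 libraries. The ratio was 7.34-fold higher at the high dose. The third member, pxy-mir-34-5p, was listed in 2 high-dose libraries and in no low-dose library, and was not tested. For the neighbouring pair of miR-750 and miR-1175, the ratio of pxy-mir-1175-3p to pxy-miR-750-3p was 0.0162, 0.0131 and 0.0142 at the low dose and 0.0421, 0.0355 and 0.0648 at the high dose. Their other arms overlapped between doses, with 0.537 to 0.724 and 0.633 to 0.899 for pxy-mir-1175-5p to pxy-miR-750-5p. Within the let-7 complex, the ratio of pxy-let-7-5p to pxy-mir-100-3p was 0.090 to 0.152 at the low dose and 0.208 to 0.308 at the high dose. These pairs were chosen after their values were seen, so no test is given. For the miR-12 and miR-283 pair no ratio was taken, and both log2 fold changes were positive (pxy-mir-12-5p 0.65, and pxy-miR-283-5p 0.30, which did not pass).

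By family and role, calls were spread over many lists, to be read beside the 22.4% called among all tested miRNAs. Of the 4 tested members of the miR-279 family, which in *Drosophila* acts on sensory neurons and JAK/STAT signalling, 2 fell and 2 did not pass. Levels of pxy-miR-279b-3p fell from 36305 ± 897 to 24862 ± 2862 CPM (SD, n = 3; -0.55 ± 0.10 SE, adjusted p = 0.000457, edgeR) and those of pxy-mir-279d-3p fell likewise (-0.56, adjusted p = 0.00427), with 4006 to 4271 CPM in low-dose and 2421 to 3118 CPM in high-dose libraries. The values of pxy-miR-279a-3p (0.03) and pxy-mir-279c-3p (-0.10) were close to no change. The family median was -0.33, and 0.02 with upper quartile factors. The let-7 complex had 1 rise among 3 tested, with -0.32 ± 0.79 SE for pxy-let-7-3p and -0.08 ± 0.16 for pxy-mir-100-3p. Of the miR-12 and miR-283 pair, pxy-mir-12-5p rose and pxy-miR-283-5p was at 0.30 ± 0.21 SE.

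Of 10 tested miRNAs from families linked to ecdysone, juvenile hormone or insulin signalling in insects, 1 rose (pxy-let-7-5p), 7 did not pass and 2 fell (pxy-miR-281-5p, then pxy-mir-278-5p). That is 30.0% called against 22.4% of all tested miRNAs, and the median was -0.15 against -0.06. Of 11 from families tied to insecticide response, none rose, 10 did not pass and pxy-mir-278-5p was the 1 that fell, with a median of -0.16. With upper quartile factors these medians became 0.18 and 0.16, beside 0.26 for all. Within that list, pxy-miR-2a-3p (-0.24) and pxy-miR-2b-3p (-0.57) had adjusted p = 0.125 and 0.263 (edgeR), and pxy-miR-2a-3p passed without high-dose replicate 2 (-0.27). The count of pxy-mir-92a-3p was 16, 17 and 6 at the low dose, and it was listed in 1 high-dose library with 14 counts.

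Among 16 tested miRNAs whose numbers were first given in *P. xylostella*, 2 rose (pxy-miR-8496-3p and pxy-miR-8495-5p), 1 fell (pxy-miR-8509-5p) and 13 did not pass. That is 18.75% called, near the 22.4% of all tested miRNAs. The name pxy-miR-8494-5p had 14, 11 and 10 counts at the low dose and 7 in a single high-dose library. Its call passed only without high-dose replicate 1, without which the high dose listed none, so no fold is given. None of the 4 miRNAs of the Hox complex (median 0.10), of the 4 in the miR-9 list (0.07) or of the 4 described first from moths (-0.10) passed. With upper quartile factors 2, 1 and 1 of them passed as higher. With 4 names each, these lists are too small to set against the share called among all tested miRNAs. In the list of the miR-2 seed family 1 of 6 rose (pxy-miR-308-3p). That list goes by family name and not by sequence, so the 6 include the opposite arm pxy-miR-308-5p (0.27), which did not pass. Known from muscle, the tissue this insecticide acts on, pxy-mir-1-3p had 29, 28 and 25 counts at the low dose and 22, 25 and 71 at the high dose. Its value of 0.60 ± 0.33 SE (adjusted p = 0.254, edgeR) rested on high-dose replicate 3, without which it was -0.05, and it passed without high-dose replicate 2 (0.88).

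**Figure D4:**
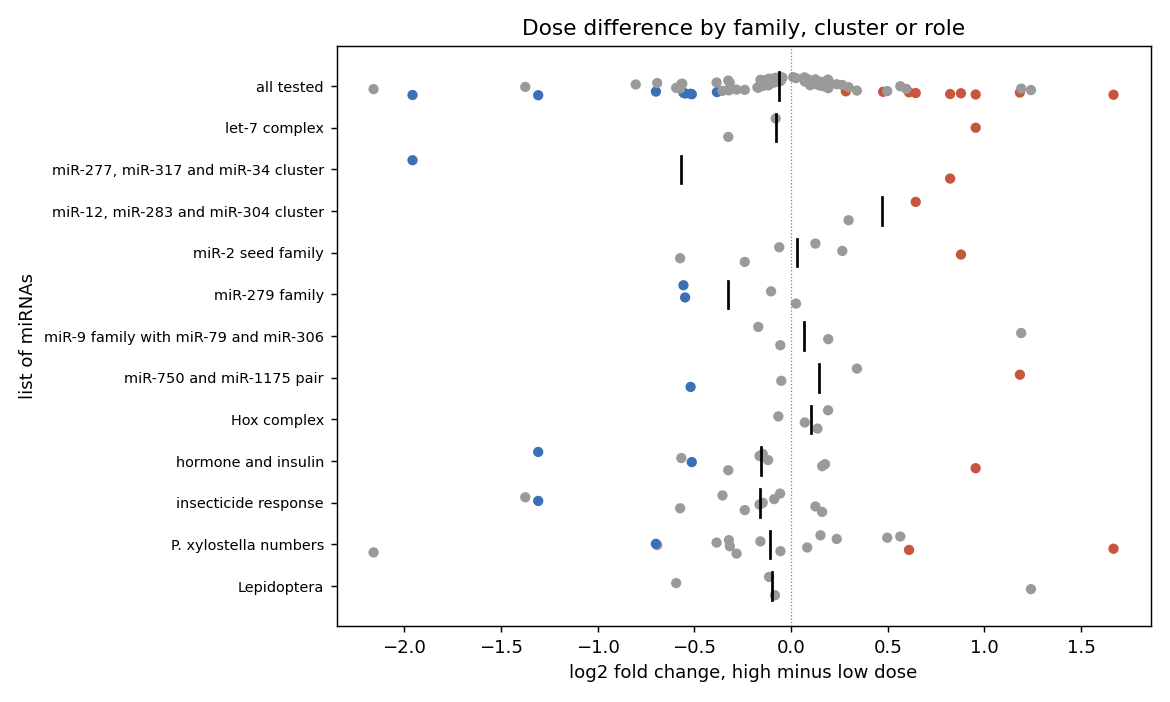
Log2 fold change (high minus low dose) of each tested miRNA, by list, with the median of each list as a black line and all 76 tested miRNAs in the top row. Red and blue mark those that passed as higher or lower; the miR-277, miR-317 and miR-34 list holds 1 of each, and the miR-279 family 2 lower of 4.

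The most abundant miRNAs were divided. Of the 10 with the highest mean share, 5 passed, beside 17 of all 76 tested (22.4%). Of these 5, pxy-miR-274-5p rose, whereas pxy-miR-281-5p, pxy-miR-263a-5p, pxy-miR-750-3p and pxy-miR-279b-3p fell. Abundant miRNAs can pass with smaller changes: the SE was 0.10 for pxy-miR-274-5p, which passed at 0.28. For the scarce pxy-miR-2756-5p it was 0.55, and a value of 1.24 did not pass. The part of abundance in these calls was not tested. The leading name, pxy-miR-10-5p of the Hox complex, took 17.7% ± 0.97 (SD, n = 3) of low-dose and 20.2% ± 1.40 of high-dose counts, and after scaling did not pass (0.07 ± 0.10 SE). Nor did pxy-mir-31-5p (0.01 ± 0.10 SE), pxy-mir-184-3p (-0.17 ± 0.12), pxy-mir-276-3p (0.10 ± 0.10) or pxy-miR-9b-5p (-0.17 ± 0.10). With upper quartile factors pxy-miR-10-5p (0.41), pxy-mir-31-5p (0.36) and pxy-mir-276-3p (0.44) passed as higher, and without high-dose replicate 2 pxy-miR-9b-5p passed as lower (-0.27).

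Below the threshold, 7 miRNAs had an unadjusted p under 0.05. The value for pxy-miR-8525-5p was 0.50 (adjusted p = 0.0648, edgeR), and with the replicate number as a block it passed (0.49, adjusted p = 0.0412). It also passed without high-dose replicate 2 (0.63). For pxy-mir-92b-3p it was -0.35 (adjusted p = 0.0648), and it passed without high-dose replicate 2 (-0.41) or 3 (-0.41). For pxy-mir-1175-5p it was 0.34 and for pxy-miR-8521a-3p -0.32 (adjusted p = 0.0844 each), and the first passed without high-dose replicate 2 (0.38). The remaining names were pxy-miR-2756-5p at 1.24, which passed without high-dose replicate 1 (1.39), pxy-miR-2a-3p, given above, and pxy-miR-8489a-3p at -0.28, which passed without high-dose replicate 2 (-0.44). The doses did not overlap for 27 of the 76 tested miRNAs (35.5%), all 17 called ones and 10 others.

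Many names fill several rows in the files, and no row holds fewer than 5 counts. Whether smaller rows were left out is not stated in the sources used here. If they were, a name spread over many small rows would lose more of its counts where its level or the library's total is low. How the counts of a name were spread changed with dose for some. The highest row of pxy-miR-8496-3p held 58.6%, 54.5% and 47.7% of its counts at the low dose and 28.6%, 33.3% and 26.1% at the high dose. The number of its rows was 2, 2 and 4 at the low dose and 5, 9 and 9 at the high dose. Over the 69 tested miRNAs listed in all 6 libraries, the share of the highest row did not overlap between doses in 17 (24.6%), of which 10 had the lower share at the high dose and 7 the higher. Among the 17 called miRNAs it did not overlap in 5 (29.4%), a proportion close to that background, but all 5 had the lower share at the high dose. Among the 52 not called it did not overlap in 12 (23.1%), 5 with the lower share and 7 with the higher. The reason for this difference in direction was not tested.

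By the highest row alone 16 miRNAs passed, 4 higher and 12 lower, and 11 of the 17 calls were among them. The falls of pxy-mir-278-5p (-1.39) and pxy-mir-317-3p (-2.00) and the rises of pxy-let-7-5p (1.00), pxy-miR-277-3p (0.70) and pxy-miR-308-3p (1.33) still passed. Besides pxy-mir-12-5p and pxy-mir-1175-3p, the rises of pxy-miR-8495-5p (0.16), pxy-mir-282-5p (0.27) and pxy-miR-274-5p (0.19) did not pass, nor did the fall of pxy-miR-8509-5p (-0.65). The arm ratio of pxy-mir-278 then differed by -0.86 and that of pxy-mir-281 by -0.85. The part that any lower limit on rows had in these differences was not tested.

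**Figure D5:**
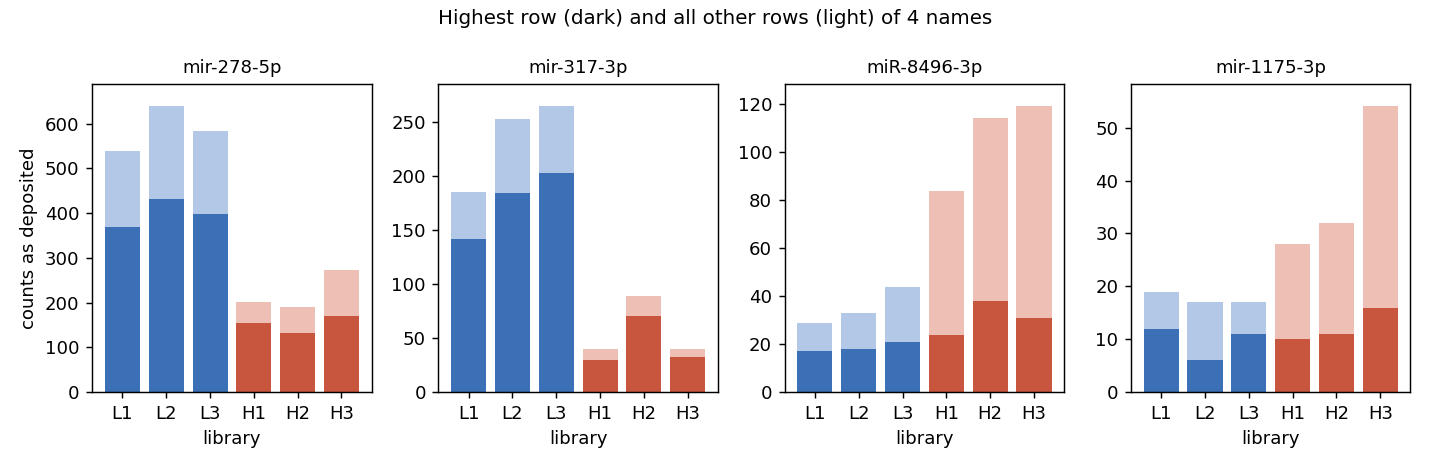
Counts as deposited for 4 miRNAs in the 3 low-dose (L1 to L3, blue) and 3 high-dose (H1 to H3, red) libraries, with the highest row dark and all other rows light. For pxy-mir-278-5p and pxy-mir-317-3p both parts shrink at the high dose; for pxy-miR-8496-3p and pxy-mir-1175-3p the light part grows more than the dark one.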

How the data were processed

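Small RNA libraries were made with an Illumina TruSeq kit and sequenced on a HiSeq, per the labels' protocols. Raw counts were deposited by the authors, each library's file pairing miRNA names with counts, per the file headers. For the mapper, the reference and any filters, nothing is stated (not given in the sources used here). Counts were summed over the rows of each name, and 2 names join a pair of miRNAs that cannot be told apart. Close family members may share reads. No row lacked a name.

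Names with at least 10 counts in 3 of the 6 libraries were tested with edgeR 4.0.16 in R 4.3.3 (TMM factors, glmQLFit, glmQLFTest, 4 residual degrees of freedom), the standard error being the log2 fold change over the square root of F. The method was tested on simulated data. Ratios within a library were compared by exact permutation in SciPy 1.17.1, two-sided. Alternatives were DESeq2 1.42.0, limma-voom (limma 3.58.1) with sample weights, other scalings and filters, the highest row of a name, the replicate block and each library left out.

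No replicates were merged, since every pair within a dose differed by more than sampling noise (chi-square over its degrees of freedom, 2.45 to 8.08). For replicate numbers 2 and 3, the libraries of the 2 doses deviated together from their group means (correlation 0.28 and 0.31), and for number 1 hardly so (0.10). Between unlike numbers the correlations ran from -0.24 to -0.04. For number 1 the correlation was barely above the limit of 0.1 set for a block. The main fit did not pair libraries, so its p-values take no account of the numbers, and the replicate block was an alternative fit. The labels do not say what a number stands for.

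The miRNAs named are those past the threshold, their other arms and list partners, the 10 most abundant, examples from 14 lists and those with an unadjusted p under 0.05. The members and lists were chosen with earlier results of these data known.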

Additional observations from a re-analysis of the deposited data

How the results depend on the processing

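With 3 libraries per dose the median half-width of the 95% interval was 0.49 log2 units among the miRNAs that did not pass, abundant and scarce ones together. The interval was -0.19 to 0.21 for the abundant pxy-mir-31-5p and 0.09 to 2.39 for the scarce pxy-miR-2756-5p. For scarce miRNAs, differences well above 0.49 could therefore go undetected at this depth. The count of 17 calls was 14 in DESeq2, 18 with RLE factors, library totals or the replicate block, 16 with no filter, 19 with at least 10 counts in every library and 20 in limma-voom. All 17 passed under the block, which changed only the call of pxy-miR-8525-5p among the named miRNAs (0.49). Upper quartile factors gave 21 higher and 2 lower, the highest single row 4 higher. With each library left out, calls ran from 12 to 28, 6 to 13 higher and 6 to 15 lower, and 12 of the 17 passed in all 6 fits. Of the 17, 6 passed in these and in all 9 other fits.

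With the highest row the arm ratio differences were -0.85 for pxy-mir-281, -0.86 for pxy-mir-278, -0.20 for pxy-mir-10, 0.0028 for pxy-mir-1175, 0.72 for pxy-mir-14b, -1.085 for pxy-mir-308 and 0.78 for pxy-mir-750. No called miRNA changed sign. Among those not called, upper quartile factors, which shift the median up, made these values positive: pxy-miR-2a-3p (0.095), pxy-miR-8489a-3p (0.048), pxy-miR-750-5p (0.287), pxy-miR-8495-3p (0.285), pxy-miR-8521a-3p (0.017), pxy-miR-9b-5p (0.161), pxy-mir-100-3p (0.258), pxy-mir-184-3p (0.176), pxy-mir-278-3p (0.190) and pxy-mir-279c-3p (0.238). Library totals did so for pxy-miR-750-5p (0.0668), pxy-miR-8495-3p (0.065), pxy-mir-100-3p (0.0347) and pxy-mir-279c-3p (0.0153). The highest row changed the sign of pxy-miR-10-5p (-0.0806), pxy-miR-279a-3p (-0.338), pxy-miR-281-3p (-0.0049), pxy-mir-276-3p (-0.0162), pxy-mir-31-5p (-0.0723) and pxy-miR-750-5p (0.0496). No filter did so for pxy-miR-279a-3p (-0.0331) and pxy-mir-31-5p (-0.044), and limma-voom for pxy-miR-279a-3p (-0.0074). With single libraries left out, values spanned 0 for pxy-miR-10-5p (-0.0319 to 0.159), pxy-mir-31-5p (-0.0494 to 0.0866), pxy-let-7-3p (-0.959 to 0.155), pxy-miR-750-5p (-0.220 to 0.0824), pxy-miR-8495-3p (-0.223 to 0.0976), pxy-mir-1-3p (-0.0491 to 0.881), pxy-mir-100-3p (-0.266 to 0.0905) and pxy-miR-279a-3p (-0.0764 to 0.0878). The cause was not tested.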
